A study of Mus musculus with 66 samples.

Results

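The difference between the ethanol responses of DBA/2J and C57BL/6J mice was measured in medial prefrontal cortex on 12 of the 66 arrays of the study. The arrays were those titled for the progenitor strains, and for each gene the quantity was ethanol minus saline in DBA/2J, minus ethanol minus saline in C57BL/6J. A positive value therefore means a higher response in DBA/2J. The groups were DBA/2J after ethanol, DBA/2J after saline, C57BL/6J after ethanol and C57BL/6J after saline, with 3 arrays each; the labels spell the second strain C57BL6/J. Ethanol was given intraperitoneally at 1.8 g/kg. All 4 groups were male mice of 10 to 12 weeks. All of them, saline mice included, underwent 15 minutes of restraint and then 10 minutes of a light-dark test, with brains taken 4 hours after injection, so no group gives an unstressed baseline. An array held RNA of 4 to 5 pooled mice, and its value is a pool mean. The other 54 arrays came from 27 BXD strains, recombinant inbred lines bred from these 2 progenitors, with 1 array per treatment and strain.

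DBA/2J mice avoid ethanol and C57BL/6J mice drink it readily, which makes the pair a standard contrast in alcohol research. Medial prefrontal cortex takes part in the control of behaviour and of stress responses. Neuronal activity there switches on immediate early genes, first transcription factors such as Fos and Npas4 and then effectors that act at synapses, partly through the factor CREB, which binds cAMP response elements in promoters. Ethanol acts on GABA-A and glutamate receptors and on several ion channels, and it activates the hormonal stress axis, in which Crh is the hypothalamic releasing peptide and also a peptide of cortical interneurons.

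Levels are log2 values from the robust multi-array average (RMA). Over 13196 genes the 12 arrays correlated between 0.985 and 0.997. One array stood apart. DBA/2J saline replicate 1 had the highest median (5.77, against 5.69 to 5.73 in the others) and the lowest SD (2.07), and counts of list members that it moves are also given without it. Summed linear levels of 16 excitatory cortical markers lay between 17189 and 19370 on all 12 arrays, and those of 10 striatal markers between 2791 and 3416. The labels say that samples were put in processing batches at random; the batch of each array was not used here. Nothing in the labels says whether pools within a group came from separate cohorts, so p-values measure the spread between these pools.

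No gene passed for the difference between the strains. With limma, 0 of 13196 genes (0%) had an adjusted p below 0.05, and the median 95% interval of a gene reached 0.29 log2 units to either side. At an unadjusted p below 0.05 there were 1097 genes (8.31%), of which 717 (5.43%) were positive and 380 (2.88%) negative, where 659.8 are expected with no difference. Of all 13196 estimates 7549 were positive and 5647 negative, with a median of 0.03. Counts of list members below are set against these shares. Among the 717 positive genes, 630 had a higher mean after ethanol in DBA/2J together with a lower mean in C57BL/6J. Among the 380 negative genes, 363 had the opposite arrangement. Over all 13196 genes, 3947 had the first arrangement and 2678 the second. Genes picked for a large difference of responses tend to have opposite responses, so these counts follow in part from how the genes were picked. The point estimates ranged from -0.93 to 0.88, and 0 genes reached 1 log2 unit, a 2-fold difference. Without DBA/2J saline replicate 1 the unadjusted counts were 405 positive and 239 negative, and 366 positive and 185 negative genes were common to both fits.

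Each strain's own response was also small. In DBA/2J 0 genes (0%) passed and 1643 (12.5%) were at unadjusted p, of which 1092 (8.28%) were higher after ethanol and 551 (4.18%) lower. In C57BL/6J 1 gene, Npas4, passed (0.00758%) and 657 (4.98%) were at unadjusted p, of which 286 (2.17%) were higher and 371 (2.81%) lower. The SD of the responses over genes was 0.149 in DBA/2J and 0.111 in C57BL/6J. Across genes, which are not independent replicates, the DBA/2J and C57BL/6J responses had a Pearson r of 0.036 and the same sign in 49.8%. Among the 1643 genes at unadjusted p in DBA/2J the sign was shared by 51%, and among the 657 of C57BL/6J by 52.1%. Ethanol and saline arrays did not overlap in DBA/2J for 1275 higher (9.66%) and 1085 lower genes (8.22%), and in C57BL/6J for 499 higher (3.78%) and 801 lower genes (6.07%). They did not overlap in both strains, in opposite directions, for few genes: 52 (0.394%) were higher in DBA/2J and lower in C57BL/6J, and 34 (0.258%) the reverse. In the same direction in both strains, 50 genes (0.379%) were higher and 67 (0.508%) lower, so opposite directions were not the more frequent case.

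**Figure D1:**
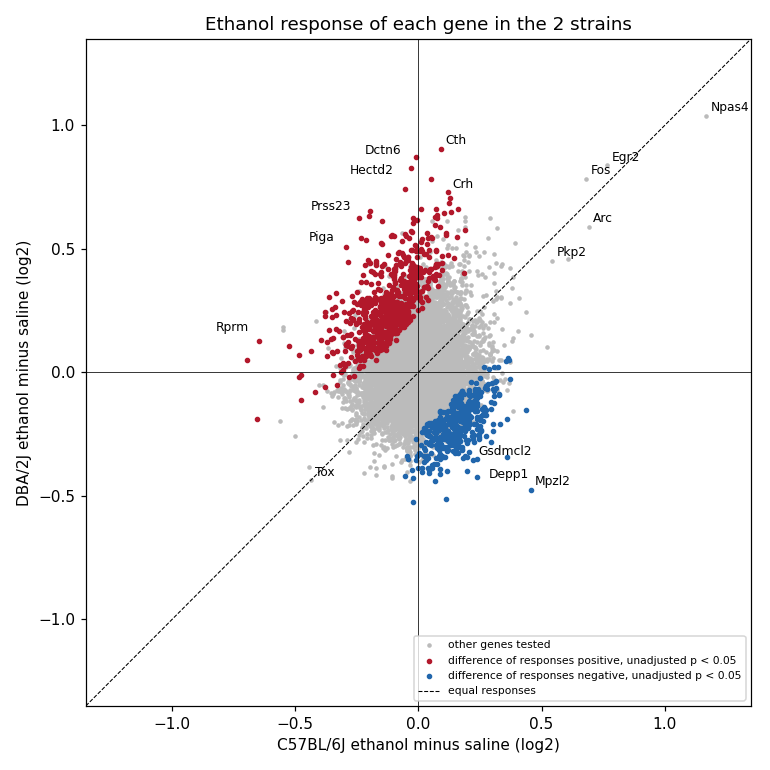
Ethanol minus saline (log2) of 13196 genes, DBA/2J on the vertical and C57BL/6J on the horizontal axis. Coloured points had an unadjusted p below 0.05 for the difference of responses (717 positive in red, 380 negative in blue), and 0 passed after adjustment. Npas4, Fos, Egr2, Arc, Pkp2 and Tox lie near the dashed line of equal responses.

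Several of the genes with the smallest p had opposite responses in the strains with no overlap of arrays in either. Piga encodes the catalytic subunit of the enzyme that starts glycosylphosphatidylinositol (GPI) anchors. Its levels were 6.33, 6.39 and 6.07 in DBA/2J after ethanol, 5.70, 5.93 and 5.64 in DBA/2J after saline, 6.16, 5.90 and 6.21 in C57BL/6J after ethanol, and 6.42, 6.50 and 6.24 in C57BL/6J after saline. The 3 ethanol arrays of DBA/2J lay above its saline arrays, and those of C57BL/6J below theirs. The responses were 0.51 in DBA/2J and -0.30 in C57BL/6J, a difference of 0.80 (SE 0.16, 95% interval 0.46 to 1.14, limma adjusted p = 0.563). Of 27 GPI anchor genes measured, Piga was the 1 at an unadjusted p below 0.05 (3.7%, against 8.31% of all genes in either direction), and the list's median difference was 0.05, against 0.03 for all genes tested.

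Sema3e, a secreted guidance cue that signals through a plexin receptor, had the same arrangement. DBA/2J read 7.49, 7.61 and 7.44 after ethanol and 7.22, 7.23 and 7.22 after saline. C57BL/6J read 7.59, 7.13 and 7.41 after ethanol and 7.65, 7.75 and 7.67 after saline. The DBA/2J saline arrays were nearly identical, while the C57BL/6J ethanol arrays spread more widely and stayed below the C57BL/6J saline arrays. The difference of responses was 0.60 (SE 0.14), and the other 2 detected probe sets of Sema3e gave 0.32 and 0.18. For Car12, a carbonic anhydrase of the cell surface, DBA/2J had 6.41, 6.58 and 6.54 after ethanol and 6.27, 6.25 and 6.17 after saline. C57BL/6J had 6.04, 6.14 and 6.09 after ethanol and 6.28, 6.33 and 6.18 after saline. The strains thus overlapped after saline and not after ethanol. The difference was 0.46 (SE 0.11), and a second, dimmer probe set of Car12 gave 0.11 (SE 0.16).

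Gsdmcl2, of the gasdermin family of pore-forming proteins, ran the other way. DBA/2J had 6.31, 6.27 and 6.18 after ethanol and 6.64, 6.58 and 6.58 after saline. C57BL/6J had 6.36, 6.39 and 6.35 after ethanol and 6.21, 6.17 and 6.18 after saline. The DBA/2J saline arrays were the highest and the C57BL/6J saline arrays among the lowest, and the difference of responses was -0.53 (SE 0.10), without DBA/2J saline replicate 1 -0.51. Dvl3, a dishevelled protein of Wnt signalling (-0.51, SE 0.14), Gdf2, a BMP-family ligand (-0.52, SE 0.14), and Dnah11, a heavy chain of ciliary dynein (-0.40, SE 0.11), also had lower ethanol arrays in DBA/2J and higher ones in C57BL/6J with no overlap. These 3 read between 5.18 and 6.64 on the 12 arrays, low on a scale where the filter on dim probe sets stood at 5.10.

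In another set the estimated response was larger in DBA/2J and near 0 in C57BL/6J. Dctn6, a subunit of the dynactin complex that links dynein to cargo, had 10.33, 10.28 and 10.49 in DBA/2J after ethanol and 9.23, 9.82 and 9.42 after saline. In C57BL/6J it had 10.75, 10.26 and 10.45 after ethanol and 10.58, 10.51 and 10.39 after saline. Levels were low on the saline arrays of DBA/2J, and the other 3 groups overlapped. The responses were 0.87 and -0.01, and their difference of 0.88 (SE 0.20) was the highest of all genes; without DBA/2J saline replicate 1 it was 0.75. A second probe set of Dctn6 gave 0.05 (SE 0.12), so the 2 probe sets of this gene disagreed.

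Fam174a, a membrane protein, showed the same shape with both of its probe sets. The brighter one read 9.45, 9.38 and 9.52 in DBA/2J after ethanol, 8.82, 9.05 and 8.90 in DBA/2J after saline, 9.74, 9.57 and 9.59 in C57BL/6J after ethanol and 9.55, 9.57 and 9.75 in C57BL/6J after saline. Saline arrays of DBA/2J were again the lowest. The responses were 0.53 and 0.01, and the difference was 0.52 (SE 0.12), with 0.46 in the second probe set. Cth, which makes cysteine from cystathionine, had 5.77, 5.96 and 5.75 in DBA/2J after ethanol and 4.75, 4.90 and 5.12 after saline. Its C57BL/6J levels were 5.82, 5.36 and 5.43 after ethanol and 5.63, 5.13 and 5.57 after saline, and these overlapped. The responses of Cth were 0.91 and 0.09, with a difference of 0.81 (SE 0.20). The DBA/2J saline mean of Cth, 4.92, lay below the dim filter at 5.10. Of 20 amino acid response and transsulfuration genes, Cth was the 1 at an unadjusted p below 0.05 (5%, against 8.31% of all genes).

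The same arrangement held for Hectd2, a ubiquitin ligase (responses 0.83 in DBA/2J and -0.03 in C57BL/6J, difference 0.86, SE 0.21). Pkib, an inhibitor of protein kinase A, had responses of 0.65 and -0.20 (difference 0.85, SE 0.20). Its C57BL/6J estimate was thus negative, though the C57BL/6J arrays of the treatments overlapped. The same held for Prss23, a serine protease, with 0.63 and -0.20 (difference 0.84, SE 0.24), and its second probe set gave 0.58. For Prss23, DBA/2J saline replicate 1 was the lowest of the 12 arrays at 6.68, against 7.27 and 7.22 in the other DBA/2J saline arrays, and without it the difference was 0.65. Among negative genes, Depp1, a FOXO-induced regulator of autophagy, had 9.04, 8.98 and 8.96 in DBA/2J after ethanol, 9.68, 9.23 and 9.12 in DBA/2J after saline, 9.13, 9.08 and 9.43 in C57BL/6J after ethanol and 8.97, 9.14 and 8.82 in C57BL/6J after saline. DBA/2J saline replicate 1 was the highest of the 12. The difference for Depp1 was -0.59 (SE 0.19), and -0.42 without that array.

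**Figure D2:**
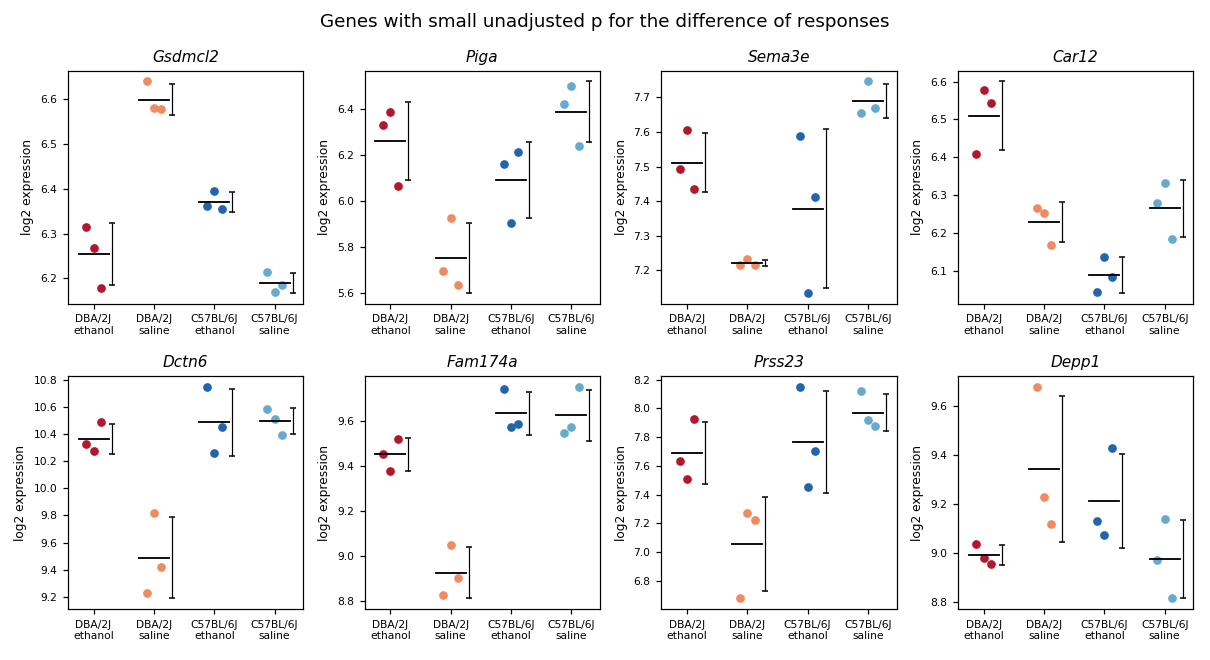
Log2 expression of 8 genes on the 12 arrays. Points are arrays, horizontal lines are group means and vertical bars are the SD of 3 arrays. Gsdmcl2, Piga, Sema3e and Car12 have opposite responses in the strains without overlap, and in Dctn6 and Fam174a the DBA/2J saline arrays lie below the other groups.

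Genes with several probe sets gave partial agreement. Of 434 genes at unadjusted p whose gene had a second detected probe set, that second probe set had the same sign in 309 (71.2%), against 57.3% of all 5950 such genes. It also had an unadjusted p below 0.05 in that direction in 43 (9.91%), against 5.26% of all. Both shares compare probe sets on the same arrays, so they bear on the probes and not on the pools. Snrpa1, a spliceosome protein, had differences of 0.52, 0.33 and 0.37 in its 3 probe sets. The main probe set of Scyl2, a clathrin-associated protein, gave -0.48, while its others gave 0.39 and 0.27. Scyl2 therefore has no settled direction.

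The best-known activity-induced genes had estimated differences near 0, with wide intervals. Npas4, a neuron-specific transcription factor, had 7.48, 7.72 and 7.21 in DBA/2J after ethanol, 6.06, 6.46 and 6.77 in DBA/2J after saline, 7.48, 7.42 and 7.70 in C57BL/6J after ethanol and 6.40, 6.31 and 6.39 in C57BL/6J after saline. Every ethanol array lay above every saline array. Npas4 had a response of 1.04 in DBA/2J (limma adjusted p = 0.056) and rose by 1.17 in C57BL/6J (adjusted p = 0.014); the difference was -0.13 with a 95% interval of -0.58 to 0.33. Fos, a subunit of the AP-1 factor, had 8.41, 8.08 and 8.09 in DBA/2J after ethanol and 7.16, 7.28 and 7.79 after saline, and 8.79, 8.97 and 8.82 in C57BL/6J after ethanol and 8.33, 8.04 and 8.17 after saline. Ethanol arrays were higher in each strain without overlap, and both treatments sat lower in DBA/2J on average. The difference in Fos response was 0.10 (-0.32 to 0.52). For the zinc-finger factor Egr2 it was 0.07 (-0.40 to 0.54), and for Arc, which acts at synapses, -0.10 (-0.89 to 0.69). A second probe set of Egr2 gave 0.31, and the main one had a DBA/2J saline mean of 4.74, below the dim filter at 5.10. The intervals of Fos, Egr2 and Arc include the Egr1 estimate below.

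Egr1 and Nr4a2 were the 2 immediate early factors at unadjusted p, and neither passed after adjustment. Egr1, another zinc-finger factor, had 11.35, 11.21 and 11.15 in DBA/2J after ethanol and 10.70, 10.80 and 10.96 after saline. In C57BL/6J it had 11.41, 11.63 and 11.47 after ethanol and 11.46, 11.47 and 11.42 after saline. The DBA/2J saline arrays were the lowest, and the DBA/2J ethanol arrays lay between them and the C57BL/6J arrays of both treatments. The responses of Egr1 were 0.42 and 0.05, with a difference of 0.37 (SE 0.13, limma adjusted p = 0.563). Nr4a2, an orphan nuclear receptor, had 6.73, 6.54 and 7.02 in DBA/2J after ethanol, 6.07, 6.39 and 6.18 in DBA/2J after saline, 6.60, 6.67 and 6.91 in C57BL/6J after ethanol and 6.88, 6.59 and 6.86 in C57BL/6J after saline. Saline arrays of DBA/2J were the low ones here too. The difference of 0.60 (SE 0.18) came from 1 of 5 detected probe sets; the others gave 0.23, -0.26, 0.10 and 0.18.

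Of 22 immediate early transcription factors listed, 21 were measured, and 2 were positive (9.52%) and 0 negative at unadjusted p, against 5.43% and 2.88% of all genes. Their median difference was 0.12 (0.02 without DBA/2J saline replicate 1), against 0.03 over all genes (0.02 without it). At unadjusted p, 9 of the 21 were higher after ethanol in DBA/2J, against 8.28% of all genes. In C57BL/6J 6 of the 21 were higher, against 2.17% of all genes. The median response was 0.27 in DBA/2J and 0.09 in C57BL/6J. Nr4a1 ran the other way, with 0.13 in DBA/2J and 0.38 in C57BL/6J. Of 20 effector genes 2 were positive (10%, against 5.43% of all genes) and 0 negative, with a median of -0.00. One was Nptx2, a synaptic pentraxin, with 8.59, 8.28 and 8.92 in DBA/2J after ethanol, 8.18, 8.28 and 8.53 in DBA/2J after saline, 8.46, 8.79 and 8.34 in C57BL/6J after ethanol and 8.84, 8.73 and 9.05 in C57BL/6J after saline. Its treatments overlapped in both strains, and the difference was 0.61 (SE 0.21), with 0.05 in a second probe set. The other was Rgs2, a brake on G-protein signalling, at 0.35 (SE 0.13). Bdnf, the neurotrophin, gave 0.25 (-0.04 to 0.53).

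**Figure D3:**
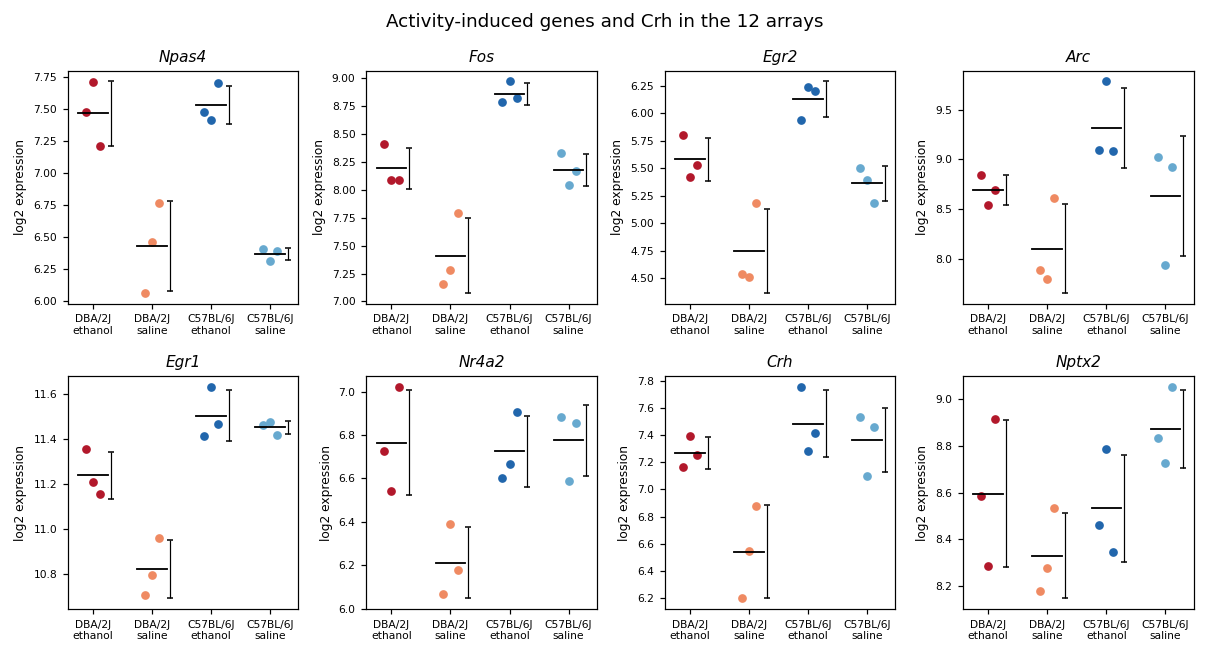
Log2 expression of 7 activity-induced genes and Crh on the 12 arrays. Points are arrays, horizontal lines are means and vertical bars are the SD of 3 arrays. Npas4, Fos and Egr2 are higher after ethanol in both strains, and the DBA/2J saline arrays are the lowest 3 of the 12 for Fos, Egr2, Egr1, Nr4a2 and Crh.

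The promoters of 3 of these factors are shown: Npas4 and Fos because their ethanol arrays were higher in both strains, and Nr4a2 because it had the smallest p of the list, from 1 of its 5 probe sets. They are RefSeq sequence of GRCm38.p6, the C57BL/6J assembly, from 250 bases before to 50 after the annotated start; DBA/2J sequence was not used here. Npas4 lies on the minus strand at chr19:4989922-4990221, Fos on the plus strand at chr12:85473640-85473939 and Nr4a2 on the minus strand at chr2:57123954-57124253. Capitals mark the half-site of the cAMP response element, TGACG, on either strand (CGTCA when read from the other).
Npas4: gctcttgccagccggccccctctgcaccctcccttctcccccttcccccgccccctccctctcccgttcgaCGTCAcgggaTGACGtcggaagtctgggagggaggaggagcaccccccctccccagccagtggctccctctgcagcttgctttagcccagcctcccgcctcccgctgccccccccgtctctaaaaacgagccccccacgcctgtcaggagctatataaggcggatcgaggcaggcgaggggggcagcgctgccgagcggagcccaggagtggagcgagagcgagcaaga
Fos: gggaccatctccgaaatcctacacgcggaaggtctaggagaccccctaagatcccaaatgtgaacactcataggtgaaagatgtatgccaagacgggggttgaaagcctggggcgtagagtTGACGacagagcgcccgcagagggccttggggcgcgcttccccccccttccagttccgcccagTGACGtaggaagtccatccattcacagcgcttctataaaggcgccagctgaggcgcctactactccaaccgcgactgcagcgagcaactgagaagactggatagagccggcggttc
Nr4a2: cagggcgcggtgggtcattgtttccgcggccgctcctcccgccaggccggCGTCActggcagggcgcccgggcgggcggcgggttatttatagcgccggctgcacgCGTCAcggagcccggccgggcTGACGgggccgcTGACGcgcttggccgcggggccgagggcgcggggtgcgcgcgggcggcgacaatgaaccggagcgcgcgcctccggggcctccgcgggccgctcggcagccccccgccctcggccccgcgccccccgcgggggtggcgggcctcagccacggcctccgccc
The half-site was found 2 times in Npas4, beginning 179 and 169 bases before the start, 2 times in Fos, at 129 and 66 bases, and 4 times in Nr4a2, at 200, 144, 123 and 111 bases. It occurred in 11 of the 18 promoters given for the immediate early factors (61.1%), in 6 of 12 effector promoters (50%) and in 5681 of 27025 promoters of all genes (21%). The full element TGACGTCA, which contains the half-site on both strands, occurred in 0 of 18, 1 of 12 and 1.88% of all, and the CArG box in 0 of 18, 1 of 12 and 1.57%. These are letter matches in 300 bases.

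Crh had its own pattern among stress genes. DBA/2J levels were 7.16, 7.39 and 7.26 after ethanol and 6.20, 6.54 and 6.88 after saline, and C57BL/6J levels were 7.76, 7.28 and 7.41 after ethanol and 7.53, 7.10 and 7.46 after saline. The DBA/2J saline arrays lay below all others and replicate 1 was the lowest. The responses were 0.73 in DBA/2J and 0.12 in C57BL/6J, a difference of 0.61 (SE 0.23) and of 0.44 without that array. Of 8 genes of the Crh system and corticosteroid receptors, Crh was the 1 at an unadjusted p below 0.05 (12.5%, against 8.31% of all genes). Of 22 glucocorticoid-responsive genes, which stress hormones induce in many tissues, 0 were positive and 0 negative at unadjusted p; 14 estimates were negative, with a median of -0.07. There were 2 negative members without DBA/2J saline replicate 1, Per1 at -0.42 and Txnip at -0.32, and the median was then -0.08. Fkbp5, which holds the glucocorticoid receptor in a less sensitive state, had 8.35, 8.23 and 8.46 in DBA/2J after ethanol, 8.11, 8.04 and 8.05 in DBA/2J after saline, 8.55, 8.62 and 8.38 in C57BL/6J after ethanol and 8.16, 8.07 and 8.21 in C57BL/6J after saline. Its ethanol arrays were higher in both strains without overlap, by 0.28 and 0.37, and the difference was -0.09 (-0.35 to 0.17). The MAP kinase phosphatase Dusp1 gave -0.19 (-0.52 to 0.14). The clock gene Per1, also a glucocorticoid target, gave -0.33 (SE 0.16), with responses of -0.13 in DBA/2J and 0.21 in C57BL/6J.

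Receptors and channels on which ethanol acts gave few small p values. Of 9 GABA-A receptor subunits measured (12 listed), 0 had an unadjusted p below 0.05 and the median was 0.09. Gabra2 was at 0.19 (-0.16 to 0.53) and Gabrg1 at 0.29. The other probe sets of Gabra2 gave -0.03 and 0.55. Of 14 ionotropic glutamate receptor subunits, the kainate receptor subunit Grik3 was positive (0.64, SE 0.27) and the NMDA receptor subunit Grin2d (-0.45, SE 0.17) and kainate subunit Grik2 (-0.30, SE 0.12) were negative, 7.14% and 14.3% against 5.43% and 2.88% of all genes. Second probe sets gave 0.03 for Grik3, -0.06 for Grin2d and 0.13 for Grik2. None of the 14 was at unadjusted p without DBA/2J saline replicate 1. Of 20 potassium channels only 1 (5%, against 8.31% of all genes) was at unadjusted p: Kcnn1, a small-conductance calcium-activated channel (-0.37, SE 0.16). Its second probe set gave 0.02, and without DBA/2J saline replicate 1 it was at -0.25 and 0 of 20 were at unadjusted p. Kcnj9, a G-protein-gated inward rectifier, had a difference of 0.13 (-0.22 to 0.47) beside levels of 10.01 to 10.36 in DBA/2J and 7.61 to 8.24 in C57BL/6J. Of 20 synaptic vesicle genes 0 were at unadjusted p, and their estimates lay between -0.19 and 0.19. The serotonin receptor Htr1b had -0.40 (SE 0.14) with its main probe set and 0.37 with its other one. Among 19 clock genes Ciart, a repressor, was at -0.43 (SE 0.13) and the factor Tef at -0.29 (SE 0.12), which is 10.5% negative, against 2.88% of all genes. Without DBA/2J saline replicate 1 Tef was at -0.23 and no longer at unadjusted p. The list then still had 2 negative members, Ciart at -0.46 and Per1.

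Ethanol-handling enzymes included 1 positive and 1 negative gene of 12 at unadjusted p (8.33% each, against 5.43% and 2.88% of all genes). Cyp2e1, a microsomal oxidase of ethanol, had 5.09, 5.21 and 5.00 in DBA/2J after ethanol, 5.57, 5.32 and 5.29 in DBA/2J after saline, 5.13, 5.29 and 5.54 in C57BL/6J after ethanol and 4.96, 5.32 and 5.21 in C57BL/6J after saline. These levels straddled the dim filter. Its difference was -0.45 (SE 0.17), and that of Adh5, an alcohol dehydrogenase that mainly clears formaldehyde adducts, was 0.30 (SE 0.12). Adh5 was at 0.27 without DBA/2J saline replicate 1 and no longer at unadjusted p. Of the list, 11 of 12 estimates were positive, with a median of 0.12.

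The chaperone, heat shock, mitochondrial ribosomal, oxidative phosphorylation, proteasome, splicing and cholesterol lists had positive median differences. Their median responses lay between -0.01 and 0.06 in DBA/2J and between -0.10 and -0.03 in C57BL/6J. Over all genes the median responses were 0.003 and -0.02. Endoplasmic reticulum chaperones, which fold secreted proteins, had a median difference of 0.17 over 17 genes, with 13 estimates positive and 2 at unadjusted p (11.8%, against 5.43% of all genes); without DBA/2J saline replicate 1 there was 1, with a median of 0.19. The median response was 0.04 in DBA/2J and -0.09 in C57BL/6J. In C57BL/6J 4 of the 17 were lower at unadjusted p, against 2.81% of all genes. Creld2, a chaperone induced by unfolded protein stress, had 7.70, 7.63 and 7.68 in DBA/2J after ethanol, 7.81, 7.65 and 7.71 in DBA/2J after saline, 7.63, 7.43 and 7.60 in C57BL/6J after ethanol and 7.84, 7.89 and 7.93 in C57BL/6J after saline. Its treatments overlapped in DBA/2J and were apart in C57BL/6J, and the difference was 0.28 (SE 0.11). Of 19 cytosolic heat shock genes 16 were positive with a median of 0.11, and 2 (10.5%) were at unadjusted p, Dnajb5 at 0.45 (SE 0.13) and Hspa1b at 0.48 (SE 0.19), both co-chaperone or chaperone genes with DBA/2J responses of 0.48 and 0.49 and C57BL/6J responses of 0.03 and 0.01. The other probe sets gave -0.12 and 0.11 for Dnajb5, and 0.43 and 0.14 for Hspa1b. Without DBA/2J saline replicate 1 Dnajb5 was at 0.35 and still at unadjusted p, and Hspa1b was at 0.35 and was not.

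Mitochondrial ribosomal proteins had 7 of 46 genes (15.2%) positive at unadjusted p and 0 negative, against 5.43% and 2.88% of all genes. Of their estimates 40 were positive, with a median of 0.12 and of 0.09 without DBA/2J saline replicate 1, when 4 were at unadjusted p. Mrps28 had the smallest p, with a difference of 0.41 (SE 0.13) made of 0.09 in DBA/2J and -0.33 in C57BL/6J. Mrps15 gave 0.58 and 0.36 in 2 probe sets and -0.28 in another, dim one. Oxidative phosphorylation subunits (2 of 58 positive or 3.45%, median 0.07), proteasome subunits (1 of 31 or 3.23%, median 0.09), splicing factors (3 of 35 or 8.57%, median 0.13) and cholesterol synthesis genes (0 of 18, median 0.11, 17 estimates positive) had 0 negative genes at unadjusted p. Without DBA/2J saline replicate 1 the positive counts were 1, 1, 0 and 0 in that order, and the medians 0.06, 0.06, 0.09 and 0.08. Genes within such groups share the same 12 arrays and tend to vary together, so they are not independent measurements.

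Most estimates were positive for markers of myelin and negative for those of meninges, and 0 of these markers passed after adjustment. Of 17 myelin and oligodendrocyte genes 16 estimates were positive with a median of 0.26, and 4 (23.5%, against 5.43% of all genes) were at unadjusted p. Mobp, a myelin structural protein, had 8.81, 8.95 and 8.82 in DBA/2J after ethanol, 8.73, 8.82 and 9.06 in DBA/2J after saline, 9.60, 9.49 and 9.29 in C57BL/6J after ethanol and 9.87, 9.86 and 9.69 in C57BL/6J after saline. The DBA/2J treatments overlapped, while the C57BL/6J ethanol arrays were all below the saline ones. The difference for Mobp was 0.33 (SE 0.14), positive at unadjusted p in 3 of its 4 probe sets. Mbp, the basic protein of myelin, gave 0.37 (SE 0.15), Ugt8a, which makes its galactolipids, 0.48 (SE 0.19), and Ermn, a cytoskeletal protein of myelinating cells, 0.43 (SE 0.18). Of the other 7 probe sets of Mbp 1 was at unadjusted p, at 0.30, and 6 lay between 0.05 and 0.14. The second probe set of Ugt8a gave -0.10, and without DBA/2J saline replicate 1 its difference was 0.29. The summed level of the 17 was 8858 to 9221 in DBA/2J after ethanol, 7676 to 9355 in DBA/2J after saline, 10211 to 12027 in C57BL/6J after ethanol and 12210 to 12752 in C57BL/6J after saline. Without DBA/2J saline replicate 1, the lowest of these, the median was 0.19 and 0 of 17 were at unadjusted p. In pooled tissue, fewer cells of a type and less RNA per cell cannot be told apart.

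Of 14 meningeal and fibroblast genes 13 estimates were negative, with a median of -0.21 (-0.27 without DBA/2J saline replicate 1) and 1 at unadjusted p (7.14%, against 2.88% of all genes; 3 members without that array). Ogn, a small proteoglycan of connective tissue, had 7.22, 7.30 and 7.33 in DBA/2J after ethanol, 7.14, 7.44 and 7.46 in DBA/2J after saline, 7.80, 7.74 and 7.77 in C57BL/6J after ethanol and 7.49, 7.61 and 7.48 in C57BL/6J after saline. The C57BL/6J ethanol arrays were the high ones, and the difference was -0.31 (SE 0.13). Slc6a20a, a transporter of meninges, gave -0.39 (SE 0.19). The summed level of the 14 was 11979 to 13337 in DBA/2J after ethanol, 12563 to 14188 in DBA/2J after saline, 14377 to 15612 in C57BL/6J after ethanol and 11967 to 14584 in C57BL/6J after saline. Choroid plexus markers reached 1997 on 1 DBA/2J ethanol array, against 279 to 788 on the others. Whether tissue taken with the cortex bears on the other differences was not tested. Astrocyte (median -0.05), microglia (0.10), endothelial (0.03) and inhibitory neuron (0.02) lists had at most 1 member at unadjusted p. Striatal markers had a median of 0.14. At unadjusted p 1 of 10 was positive (10%, against 5.43% of all genes), the neuropeptide Tac1 (0.34, SE 0.13). Without DBA/2J saline replicate 1 there were 3.

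**Figure D4:**
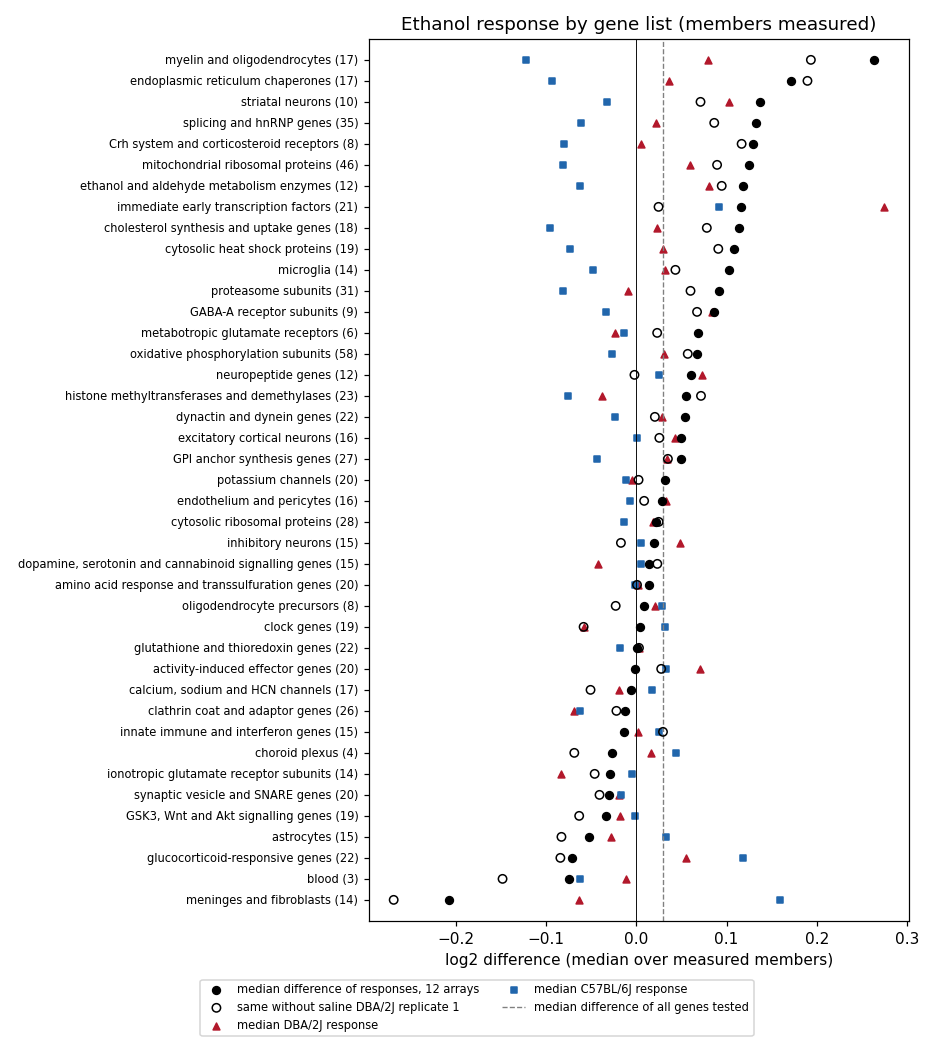
Median log2 difference of responses (DBA/2J minus C57BL/6J) for 41 gene lists with 12 arrays (filled circles) and without DBA/2J saline replicate 1 (open circles), with the median DBA/2J response (triangles) and C57BL/6J response (squares). The dashed line is the median of all 13196 genes, 0.03; myelin (0.26) and meninges (-0.21) lie at the ends.

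The 27 BXD strains give the range of responses among mice that carry mixtures of these 2 genomes. Each BXD response rests on 1 ethanol and 1 saline array, so it spreads more than a mean of 3 and is given as a description. For Dctn6 the BXD responses ran from -0.41 through a median of 0.03 to 0.75, all below the 0.87 of DBA/2J. For Cth they ran from -0.32 through -0.03 to 0.43, below the 0.91 of DBA/2J, and for Fam174a from -0.58 through -0.06 to 0.30, below 0.53. In these 3 genes, 0 of 27 strains exceeded DBA/2J. They were named for their values on the progenitor arrays, so an extreme DBA/2J response is in part built in. Of Hectd2, Pkib and Prss23, described beside them, Hectd2 and Pkib each had 1 strain above DBA/2J, and Prss23 had 3. Crh ran from -0.72 through 0.03 to 1.05, with 10 strains between the progenitors, 16 below both and 1 above both. Npas4 ran from -0.28 through 0.88 to 1.86, with 18 strains below both progenitors and 6 above. Tox, a nuclear factor with a response of -0.44 in each progenitor, ran from -0.35 through 0.01 to 0.26, so all 27 strains lay above both. Over all genes the BXD median response had a Pearson r of 0.153 with DBA/2J and 0.133 with C57BL/6J.

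**Figure D5:**
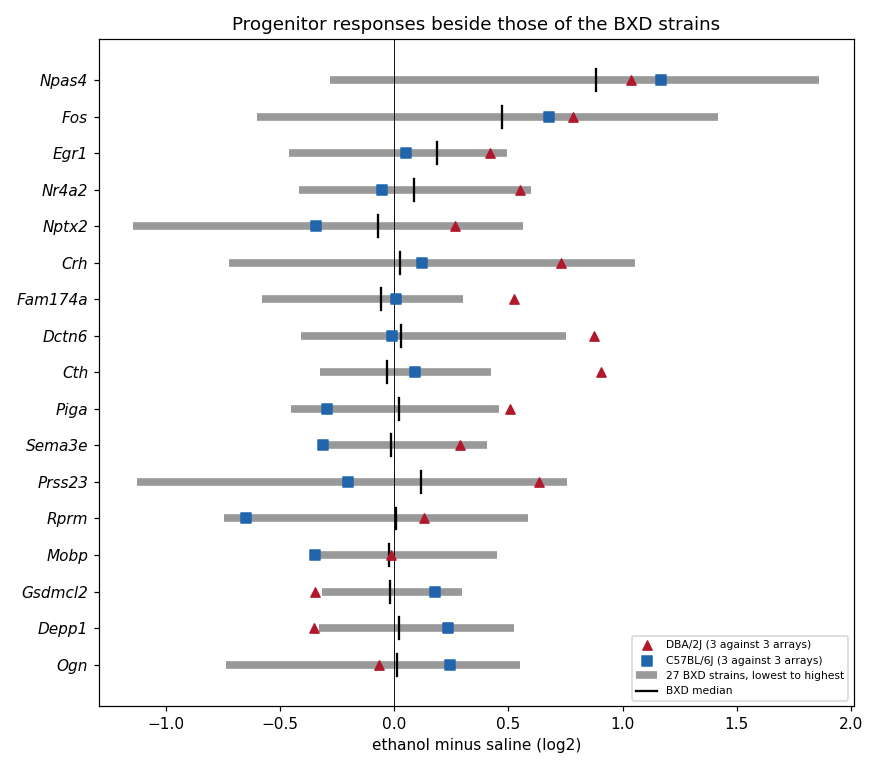
Ethanol minus saline (log2) of 17 genes in DBA/2J (triangles) and C57BL/6J (squares), beside the lowest to highest response of 27 BXD strains (grey bars, black tick at the median). For Cth, Dctn6, Fam174a and Piga the DBA/2J response lies above the BXD range, and for Gsdmcl2 and Depp1 below it.

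The strain difference itself was usually smaller after ethanol among the genes at unadjusted p. The same saline arrays enter both quantities, so this follows in part from how the genes were picked and is a description. Among the 717 positive genes DBA/2J was below C57BL/6J after saline in 646, and the absolute strain difference had a median of 0.169 after ethanol and 0.238 after saline. Among the 380 negative genes DBA/2J was below C57BL/6J after saline in 17, with medians of 0.134 after ethanol and 0.250 after saline. It was smaller after ethanol in 61.5% of the positive and 74.2% of the negative genes, against 55.5% of all 13196 genes. Without DBA/2J saline replicate 1 the shares were 61%, 62.3% and 53.5%.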

How the data were processed

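The deposited table held log2 expression of 45037 Affymetrix probe sets on 66 arrays, produced by the authors' use of RMA in affy, as the submitters' processing notes name them, with no version. RMA equalises array distributions, so levels are relative. A platform annotation gave 34945 probe sets 1 symbol, 932 several and 9160 none; 34741 symbols were updated by Entrez identifier through RefSeq (GRCm38.p6). The 18015 probe sets with a mean below the 40th percentile (log2 5.10) were removed, and each of 13196 genes took its brightest probe set over the 66 arrays. A fit of the 12 arrays with limma 3.58.1 (lmFit, eBayes, two-sided; R 4.3.3; files read through data.table, release 1.17.8) had 8 residual degrees of freedom; all adjusted p are limma's, by Benjamini-Hochberg over 13196 genes with a threshold of 0.05. It was tested on simulated data. Figures used matplotlib 3.10.9. The arrays' number limits the precision, with a median SE of 0.136 for the difference of responses.

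Members, gene lists and rules were chosen with earlier results of these data known. Named genes were the 10 smallest p in each direction with all 4 group means above the filter, the 3 smallest in each direction with opposite responses and no overlap, the 5 in each direction with at least 2 probe sets at unadjusted p, up to 3 list members at unadjusted p, and a fixed set of known genes; list members beyond these are named as examples chosen after their values were seen. Replicate numbers were not treated as pairs in the main fit. Deviations of same-numbered ethanol and saline arrays correlated at 0.262, 0.117 and 0.0556 in DBA/2J and at 0.0818, -0.129 and -0.231 in C57BL/6J. Those of differently numbered arrays ran from -0.305 to 0.164 in DBA/2J and from -0.232 to 0.333 in C57BL/6J. With 3 arrays a group these values cannot settle whether the numbers pair arrays. The 24 alternatives covered filter, probe set, scaling, variance model, blocks and left-out arrays.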

Additional observations from a re-analysis of the deposited data

How the results depend on the processing

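Under 24 alternatives the number of genes past an adjusted p of 0.05 stayed at 0, with a smallest adjusted p in limma between 0.0748 (with the first component of the residuals as a covariate) and 0.757 (array weights), and between 0.0891 and 0.950 when 1 array was left out. The count at unadjusted p, 1097, was 1991 over all 27022 detected probe sets and lay between 640 (without DBA/2J ethanol replicate 3) and 1694 (without C57BL/6J ethanol replicate 1); it was 644 without DBA/2J saline replicate 1. It was 1619 with the residual component, which was taken from the same fit. Scaling moved its split of 717 positive and 380 negative genes, to 1131 and 213 with median centring, which put the median of all genes at 0.08, and to 531 and 441 with repeated quantile normalization; without the dim filter it was 741 and 713, and with the 60th percentile 689 and 172. With the replicate number as a block the count was 1280 within strain and 956 over both strains, and 0 passed. Whether the numbers pair the arrays was not settled. The correlation of the strains' responses, 0.036, was 0.164 with array weights and ran from -0.150 (without C57BL/6J ethanol replicate 1) to 0.203 (without C57BL/6J ethanol replicate 2). Over 97 genes, 2279 gene values kept their direction and 26 reversed. With the most variable probe set of the gene, Scyl2 was 0.27, Htr1b 0.37, Mrps15 -0.28, Dnm2 0.23, Cacna1d 0.025, Gsk3b 0.67 and Glo1 0.21. Tox was -0.071 with repeated quantile normalization and Arc 0.13 with array weights. When 1 array was left out, genes with a difference near 0 changed sign, with lowest and highest values of -0.021 and 0.29 for Fos, -0.046 and 0.29 for Egr2, -0.066 and 0.068 for Tox, -0.31 and 0.041 for Npas4, -0.30 and 0.069 for Junb, -0.30 and 0.25 for Arc, and -0.013 and 0.26 for Kcnj9. Medians of the 41 lists moved by 1 SD or more in 104 cases and by less in the others. The myelin median ranged from 0.19 to 0.31 and the meningeal one from -0.29 to -0.14. The blood list gave no value under the 60th percentile filter. The causes of these changes were not tested. With 3 pools a group, a single gene's difference under about 0.29 log2 units cannot be told from 0 at its median interval.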
